A study of Mus musculus with 2 samples.

Results

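The laminin, integrin and costamere genes described here are 10 genes that build the link between the basement membrane and the cytoskeleton of the muscle fibre: 5 laminin chains (Lama2, Lama4, Lama5, Lamb1 and Lamc1), 3 integrin subunits (Itgb1, Itga5 and Itga6) and 2 adaptors (Vcl and Tln2). They are 10 of 21938 annotated protein-coding genes. Their members in the accessibility data are the peaks whose centre lies within 50 kb of any annotated transcript start of these genes, with the footprints inside those peaks. That rule, which uses distance and no measured value, took 129 of 94295 peaks in replicate 1 and 167 of 123291 peaks in replicate 2. A peak within 50 kb is assigned by distance alone, and the data do not show which gene it acts on.

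Laminins are trimers of 1 alpha, 1 beta and 1 gamma chain found in basement membranes, among them the one around each fibre. Integrins, heterodimers of an alpha and a beta subunit, bind laminin or fibronectin outside the cell. Talin and vinculin tie the tails of the integrins to actin at the costamere, the rib of the fibre membrane that lies over the sarcomere's Z-disc.

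Accessible chromatin was mapped by DNase-seq, which sequences the places where the enzyme DNase I can cut DNA. The tissue was the gastrocnemius, a calf muscle, of 4-day-old male B6CASTF1/J mice, the first-generation cross of C57BL/6J and CAST/EiJ. Both libraries belong to 1 group as biological replicates 1 and 2, and each label speaks of 3 males and carries the same donor entry. With 1 group and n = 2 there was no contrast and no test, and the spread given is that between these libraries, which may be in part technical.

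The authors' lists held 94295 peaks and 210189 footprints in replicate 1 and 123291 peaks and 335055 footprints in replicate 2. Each peak carries the authors' own cut density, all of whose values were whole multiples of a step of 0.00675 in replicate 1 and 0.00333 in replicate 2 (tolerance 0.1 step). Depth in reads is not known from these lists. Levels are therefore given as the density and as its rank, the percentile from 0 to 100 within the list of that library. Of the markers of skeletal muscle, 9 of 10 had a promoter peak in both libraries, against 0 of 6 markers of foreign tissues. Among these foreign markers Krt5 showed a weak peak, at a rank of 14.1, in replicate 2 and none in replicate 1. Promoter peaks in both libraries were also found at 5 of 6 fibroblast markers, 4 of 6 endothelial markers, 6 of 6 markers of pericytes and smooth muscle, 3 of 5 Schwann cell markers and 0 of 5 macrophage markers. The share over all protein-coding genes was 65.2%. The endothelial and Schwann cell counts lie near it and so say little about those cells, and all these marker lists are short. In bulk tissue a weak peak in every cell and a strong peak in few cells cannot be told apart.

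A promoter peak touched the 500 bp on either side of any annotated start of a gene. Such a peak was present in both libraries at 9 of the 10 genes, where 65.2% of all protein-coding genes had one. The same 9 had one in each library taken alone, where 66.4% of protein-coding genes did in replicate 1 and 68.2% in replicate 2. Tln2 was the exception, with no promoter peak in either library. Over the 9 genes the median of the mean rank was 85.1, against 92.1 over the 14305 protein-coding genes with a promoter peak in both libraries, so a peak was present at most of these genes but was stronger than the usual one at only 3.

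The strongest and the weakest of these promoters are shown first, because they mark the 2 ends of the range. The bases are those of the C57BL/6J reference (GRCm38) on the strand of the gene, from the promoter peak up to the base before the most upstream start. Capitals mark bases that lay in footprints, stretches protected from cutting, in both libraries. The Vcl stretch is chr14:20929098-20929397 on the plus strand, and the Lama5 stretch is chr2:180225860-180226000 on the minus strand.
Vcl promoter: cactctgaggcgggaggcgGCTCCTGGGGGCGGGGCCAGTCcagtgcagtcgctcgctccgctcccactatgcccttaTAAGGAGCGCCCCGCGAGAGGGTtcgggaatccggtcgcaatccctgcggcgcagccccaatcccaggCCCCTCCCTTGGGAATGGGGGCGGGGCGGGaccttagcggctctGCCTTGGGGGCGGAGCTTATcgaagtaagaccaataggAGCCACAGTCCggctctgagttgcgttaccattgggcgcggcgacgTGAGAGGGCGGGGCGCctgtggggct
Lama5 promoter: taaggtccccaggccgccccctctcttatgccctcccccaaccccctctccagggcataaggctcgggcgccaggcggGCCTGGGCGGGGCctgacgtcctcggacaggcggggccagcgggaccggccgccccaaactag

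In the Vcl stretch 122 of 300 bases lay in footprints of both libraries, and in the Lama5 stretch 13 of 141 did. Footprinted runs in both promoters, though not every run of Vcl, contain GGGCGG, the core of the GC box bound by SP and KLF factors. The Vcl promoter peak of replicate 1 held 6 such matches that lay wholly in footprints of both libraries, at -311, -270, -133, -128, -100 and -18 bp from the start, of which the first lies outside the stretch shown and the last lies past the end of the replicate 2 peak. The Lama5 promoter peak held 1, at -57 bp.

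The gamma 1 and beta 1 chains, which most laminin trimers share, had the stronger promoter peaks among the 5 laminin chains of the set. Lamc1, which encodes the gamma 1 chain, had a promoter peak of density 8.14 in replicate 1 and 4.64 in replicate 2, centred at -205 and -215 bp from the start. Its mean rank was 96.8 ± 0.00553 (SD, n = 2), and the peak held 8 footprints in each library. A second Lamc1 promoter peak, 605 bp downstream in a coding exon, was shared at a mean rank of 67.8. Lamb1, which encodes the beta 1 chain, had densities of 4.06 and 2.38 over its 5'UTR and a mean rank of 90.4 ± 0.564 (SD, n = 2). Both libraries thus placed Lamc1 above Lamb1.

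The alpha chains, which set the tissue and receptor specificity of a laminin, had weaker promoter peaks. Lama4, whose chain is known from the basement membranes of vessels, had densities of 2.63 and 1.62 in replicates 1 and 2 and a mean rank of 84.5 ± 1.35. Lama2 encodes the alpha chain of the main laminin of the adult fibre and is mutated in a human congenital muscular dystrophy. It had densities of 1.84 and 1.20 and a mean rank of 78.0 ± 2.46. Its peak lay at a downstream start, 2907 and 2917 bp from the most upstream one in replicates 1 and 2. Lama5, a widely expressed alpha chain also found at the neuromuscular synapse, had densities of 1.499 and 1.04 and a mean rank of 73.5 ± 3.98 (SD, n = 2 for each). Lama2 and Lama5 did not differ beyond their spread, though each library placed Lama2 above Lama5.

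Among the integrins, Itgb1 stood far above the alpha subunits. Itgb1, the beta subunit that pairs with most alpha subunits of muscle, had the same peak interval in both libraries, chr8:128685601-128685860 in its 5'UTR. Its density was 11.2 in replicate 1 and 5.94 in replicate 2, a mean rank of 98.7 ± 0.368 (SD, n = 2). Itga5, the alpha subunit of the fibronectin receptor, had densities of 2.42 and 1.94 and a mean rank of 85.1 ± 4.45. A second Itga5 promoter peak, at -233 bp from the starts, was shared at a mean rank of 70.1.

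Itga6, a laminin-binding alpha subunit, had accessible sites at separate starts. In replicate 1 its strongest promoter peak lay in the 5'UTR, 83 bp downstream of a coding start, with a density of 1.91 and a rank of 77.1. In replicate 2 the strongest lay at an internal start, in an intron, with a density of 1.40 and a rank of 82.8. The internal site was a peak in replicate 1 as well, with a density of 1.61 and a rank of 72.8. At the 5'UTR start replicate 2 had peaks at ranks 77.6 and 78.2, which overlap each other in the list. The mean rank of 80.0 ± 4.04 for Itga6 therefore joins different peaks, and both sites were accessible in both libraries.

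Vcl and Tln2, the adaptors, lay at opposite ends. Vcl, which encodes the actin-binding protein vinculin, had the strongest promoter peak of the 10 genes, with a density of 13.8 and 6 footprints in replicate 1 and a density of 7.37 and 4 footprints in replicate 2. Its mean rank was 99.5 ± 0.171 (SD, n = 2), and 96.6% of the genes with a promoter peak in both libraries ranked lower. By the same measure 90.1% ranked lower than Itgb1, 76.1% lower than Lamc1, 43.6% lower than Lamb1 and 19.0% lower than Lama5. From Vcl through Itgb1, Lamc1 and Lamb1 to Itga5 each neighbour in the order differed by more than its spread. From Itga5 through Lama4, Itga6 and Lama2 to Lama5 neighbours did not. Each library taken alone still placed Lama4 above Itga6, Itga6 above Lama2 and Lama2 above Lama5, with Itga6 ranked by a different peak in each. Itga5 and Lama4 changed places between the libraries.

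**Figure D1:**
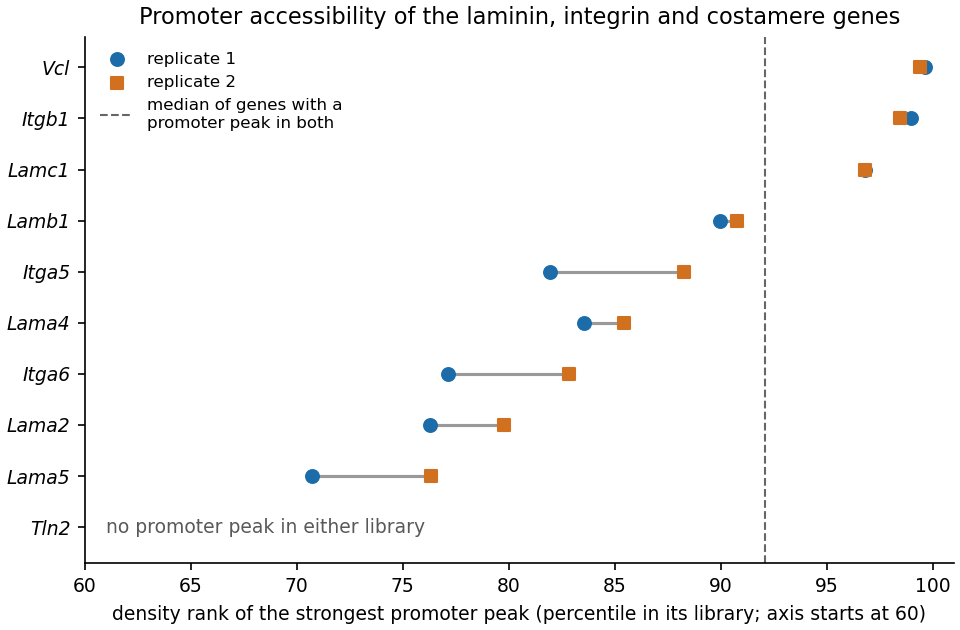
Rank of the strongest promoter peak (percentile within its library, axis from 60) for each gene, with 1 point per library and a line joining the points. Vcl, Itgb1 and Lamc1 lie above the dashed line, the median of 92.1 over all genes with a promoter peak in both libraries, and Tln2 has no promoter peak.

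Tln2, which encodes the talin of mature striated muscle, has 9 annotated starts spread over its long transcription unit. The nearest peak edge was 2446 to 21336 bp away from these starts in replicate 1 and 2231 to 19018 bp away in replicate 2. The deposited FDR lists, which give the bases with a false discovery rate (a q-value) below 0.05, held only short stretches there. Within 500 bp of the starts there were 7 listed intervals in replicate 1, with a lowest FDR of 0.0309 and a longest stretch of 15 bp, and 17 in replicate 2, with a lowest FDR of 0.0292 and a longest stretch of 37 bp. No peak was thus called at any annotated Tln2 start, and its transcription was not measured here.

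The longest stretch of bases with an FDR below 0.05 was taken for every member, Tln2 included at 15 and 37 bp. Its median length was 813 bp in replicate 1 and 1254 bp in replicate 2. At the 9 promoters with a peak it ran from 341 to 1631 bp in replicate 1 and from 260 to 1737 bp in replicate 2. Lamc1 had 1631 and 1734 bp in replicates 1 and 2, Vcl 1480 and 1737 bp, and Itgb1 1470 and 1640 bp. The lowest FDR was 6.16e-147 at the Vcl peak of replicate 1. Lama5 had 341 bp and a lowest FDR of 0.000198 in replicate 1 and 1386 bp and 4.48e-20 in replicate 2. Itga6 had 1058 bp in replicate 1 and 260 bp in replicate 2, where the stretch belongs to the internal start.

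Promoters rich in CpG dinucleotides are accessible in most tissues, so the members were set beside genes of like CpG ratio (observed over expected, in the reference around the most upstream protein-coding start, all genes split into 10 classes). Vcl and Itgb1 fell in class 10, the richest, and ranked at 99.5 and 98.7, where the class median was 95.6. Lamc1, in class 8, ranked at 96.8 beside a class median of 94.6, and Lamb1, in class 6, at 90.4 beside 90.1. Lama4 and Lama2, in class 4, where 46.8% of genes had promoter peaks in replicates 1 and 2, ranked at 84.5 and 78.0 beside a class median of 76.2.

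The remaining members ranked below their class. Itga6, in class 9, ranked at 80.0 beside a median of 95.4. Itga5 and Lama5, in class 6, ranked at 85.1 and 73.5 beside 90.1. Tln2 fell in class 2, with a CpG ratio of 0.134, and in that class 15.3% of genes had promoter peaks in replicates 1 and 2.

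**Figure D2:**
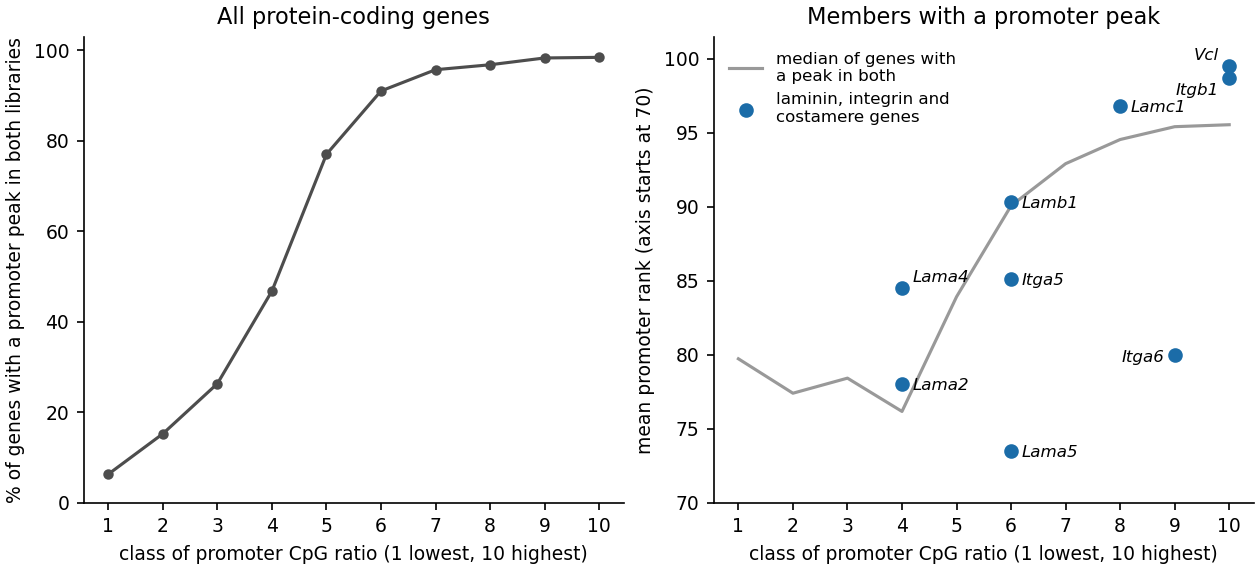
Left, share of all protein-coding genes with a promoter peak in both libraries in each class of promoter CpG ratio, which runs between 6.34% in class 1 and 98.4% in class 10. Right, mean promoter rank (axis from 70) of the 9 genes with a peak by class, with the class median as a line; Lama5 at 73.5 and Itga6 at 80.0 lie farthest below it.

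Around the 10 genes peaks were denser than over the whole genome, but windows round any gene start hold more peaks than gene-poor DNA. Within the 2.09 Mb of their windows there were 61.7 peaks per Mb in replicate 1 and 79.9 in replicate 2. Over the whole genome there were 34.6 and 45.2 per Mb. Peaks shared by both libraries ran from 2.21 per 100 kb of window at Lama2 to 14.7 at Itga5. The same windows round all protein-coding genes had a median of 4.79, with quartiles of 2.00 and 8.09. The mean number of peaks near the members was 148 ± 26.9 (SD, n = 2). Their median density was 1.08 in replicate 1 and 0.576 in replicate 2, where the median of all peaks was 0.871 and 0.513.

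Of the members' peaks in replicate 1, 108 of 129 (83.7%) overlapped a peak of replicate 2 by at least 1 bp, where 79.6% of all its peaks did. Of those in replicate 2, 105 of 167 (62.9%) overlapped a peak of replicate 1, where 60.8% of all did. Both shares lay near the background. Peaks found in 1 library only were weaker, with a median rank of 25.7 in replicate 1 and 39.7 in replicate 2, where the shared ones had 64.1 and 72.9.

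Footprints lay inside 107 of 129 peaks in replicate 1 (82.9%), where 78.4% of all its peaks had one, and inside 149 of 167 in replicate 2 (89.2%), where 83.4% did. The members' peaks held 271 footprints in replicate 1 and 428 in replicate 2. Of these, 184 (67.9%) and 181 (42.3%) overlapped a footprint of the other library, against 66.1% and 42.2% of the footprints in all peaks. The overlap of footprints near these genes was thus close to that elsewhere.

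Pairing each peak with the one it overlaps most in the other library gave 104 shared peaks near the members. Of these, 14 lay at promoters of the members, 14 at promoters of other genes, 5 near a start, within 1 kb of it but outside a promoter, and 71 were distal, with their centre over 1 kb from every annotated start. Of the 71 distal peaks, 37 lay in introns, 13 in exons and 21 between genes. The member itself held 43 of them, and for 45 the nearest annotated start was one of the member.

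The numbers differed widely by gene. Itga5 had 17 shared peaks, or 14.7 per 100 kb of its window, and 94.0% of protein-coding genes had fewer per 100 kb. Of these 17, 12 were distal, and an Itga5 start was the nearest annotated start for only 4 of the 12. Tln2 had 15 shared peaks, Lama5 12, Lamc1 and Vcl 11 each, Lama4 9, Lamb1 and Itga6 8 each, Itgb1 7 and Lama2 6. The windows differ in length because the genes have few or many starts, and per 100 kb Lama2 had the fewest, 2.21, where the median over all genes was 4.79.

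**Figure D3:**
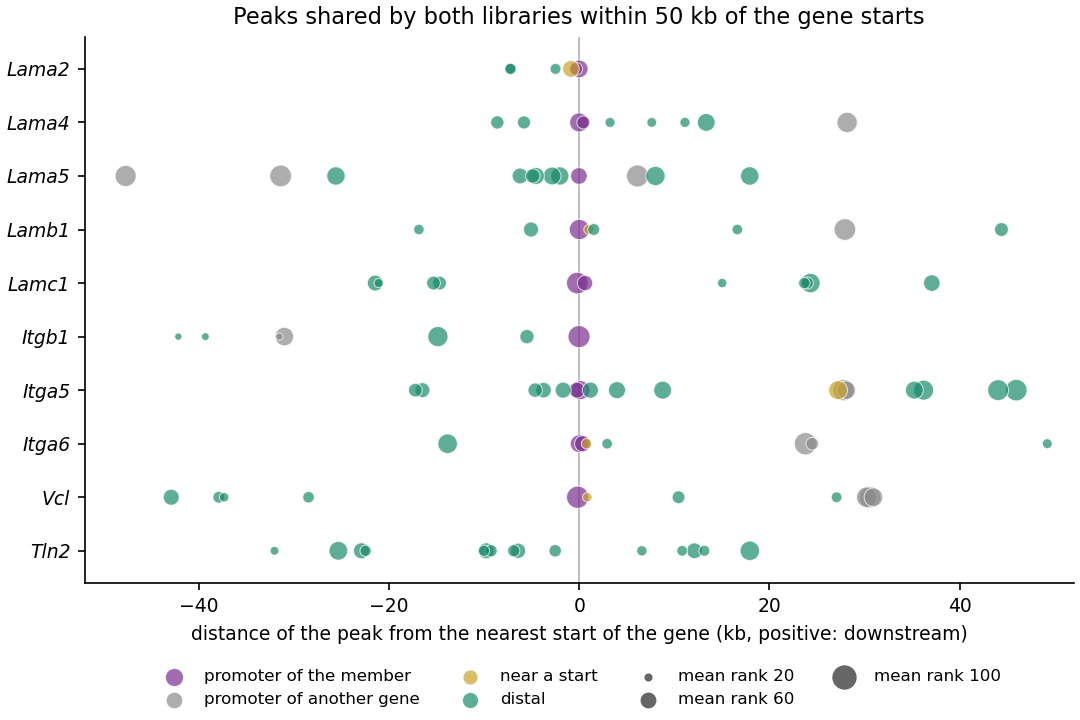
Each of the 104 shared peaks by its distance from the nearest start of the gene (kb, positive downstream), with 1 line per gene, colour for the class and area rising with the mean rank. The 15 peaks of Tln2 are all distal, and the largest point away from 0 at each of Lama5, Vcl, Lamb1 and Itga6 is a promoter of another gene.

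Of the 104 shared peaks, 16 had a mean rank of 90 or above, and most of them belonged to neighbours. Promoters of other genes accounted for 9: Pdk1, a pyruvate dehydrogenase kinase, at a mean rank of 99.7 near Itga6; Adrm1, a ubiquitin receptor of the proteasome, at 98.4, the ribosomal protein gene Rps21 at 97.4 and Cables2 at 94.5, all near Lama5; Dld, a dehydrogenase of mitochondrial metabolism, at 96.9 near Lamb1; adenosine kinase Adk at 95.5 and Ap3m1 at 91.7 near Vcl; Zfp385a at 95.3 near Itga5; and Tube1, a tubulin, at 90.6 near Lama4. The promoters of Vcl, Itgb1, Lamc1 and Lamb1 were 4 more. The remaining 3 were distal, of which 2 lay near Itga5 and 1 in Itgb1.

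The strongest distal peak of any member was chr15:103305241-103305580 in replicate 1, with a density of 7.76 there and 4.23 in replicate 2. Its mean rank was 96.2 ± 0.206 (SD, n = 2). It lay 45957 bp downstream of the nearest Itga5 start, in an intron of the antisense gene Gm49482, whose start was 4356 bp away. The next, chr15:103307241-103307420, was the same interval in each library. It ranked at 93.3 on average and lay 3281 bp from the start of Gpr84. Both are thus closer to starts of other genes than to those of Itga5.

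In Itgb1 the strongest distal peak was chr8:128709401-128709540 in replicate 1, in an intron, at -14867 bp from its nearest start and 23812 bp downstream of its most upstream one. It had a density of 4.35 in replicate 1 and 2.14 in replicate 2 and a mean rank of 90.1 ± 0.889. In this gene an intronic site thus ranked close to the Lamb1 promoter.

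The other integrin and the adaptors had distal sites of lower rank. Itga6 had an intron peak at -13846 bp from its nearest start with a mean rank of 87.3 ± 0.857. For Tln2 the strongest was chr9:67213401-67213560 in replicate 1, in an intron of Gm19299 and 17936 bp downstream of the nearest Tln2 start, with densities of 2.90 and 1.97 and a mean rank of 86.9 ± 2.26. A Tln2 peak at -25338 bp, upstream of every start, followed at 83.4. Vcl, the gene with the strongest promoter, had no distal peak above a mean rank of 70.5 ± 6.71, that of a site at -42917 bp from its start.

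Among the laminin chains Lamc1 had an intron peak 24305 bp downstream of its start at a mean rank of 86.8 ± 3.52, and Lama5 one 8018 bp downstream at 85.8 ± 0.981. Lama5 thus had distal sites in introns that ranked above its own promoter. The strongest distal peaks of Lama4, Lamb1 and Lama2, all in introns, had mean ranks of 79.0 ± 7.97, 65.9 ± 10.5 and 49.3 ± 16.5 (SD, n = 2 for each). For Lamb1 and Lama2 the libraries were far apart, with ranks of 58.5 and 37.7 in replicate 1 and 73.3 and 61.0 in replicate 2.

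Over the 104 shared peaks the density of replicate 1 was a median of 1.45 times that of replicate 2, where the ratio over all 73024 paired peaks was 1.41. The ratio was 1.47 at the members' own promoters and 1.45 at distal peaks. The constant by which the authors scaled each library is not stated in the labels or lists, so this ratio is a property of the libraries and was not read as a change.

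**Figure D4:**
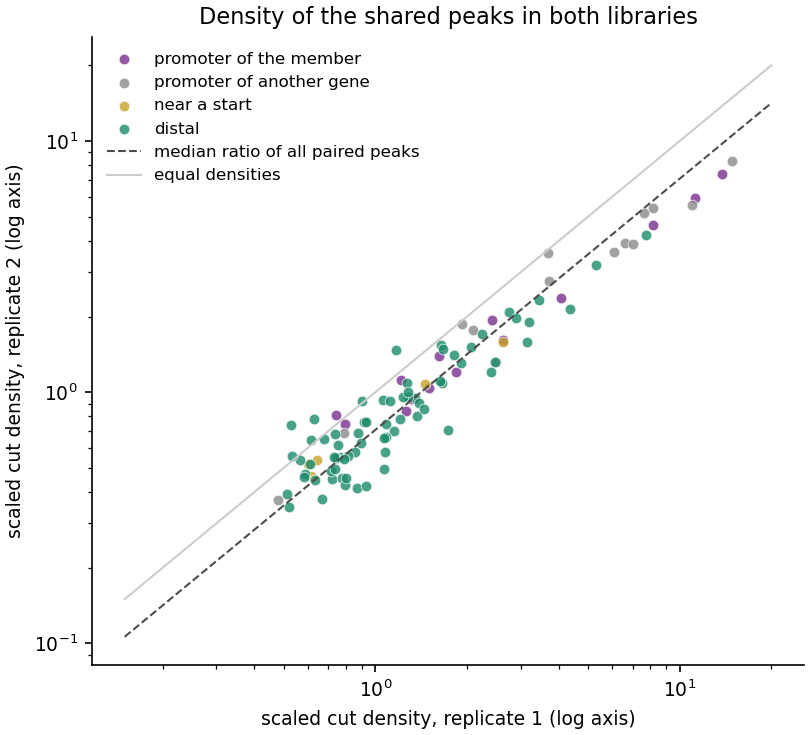
Scaled cut density of the 104 shared peaks in replicate 1 and replicate 2, both on log axes, coloured by class. The points follow the dashed line, the median ratio of 1.41 over all paired peaks, and lie below the grey line of equal densities at the strong promoters.

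Exact letters of 19 motifs were searched on both strands of the reference in the shared peaks. Footprints covered 18.8% of the bases of these peaks in replicate 1 and 20.8% in replicate 2. In all, 44 matches lay wholly in footprints of both libraries. SP/KLF matches (GGGCGG) made up 21 of them and CTCF matches 10, while the E-boxes CAGCTG and CACCTG, of the kind bound by MyoD and other basic helix-loop-helix factors, gave 4 and 3.

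Motifs differed in how many of their matches were footprinted. Of 14 CTCF matches, 10 (71.4%) lay in footprints of both libraries, where 58.8% did in all shared peaks. Of 59 SP/KLF matches 21 did (35.6% against 22.5%), of 23 CACCTG matches 3 (13.0% against 14.1%), of 48 CAGCTG matches 4 (8.33% against 6.36%), of 37 NF-Y matches (CCAAT) 3 (8.11% against 7.94%) and of 14 TEAD matches (GGAATG) 1 (7.14% against 3.47%). RUNX (AACCACA) had 1 of 5, where 4.18% of matches did in all shared peaks, and EBF 1 of 3, where 14.2% did. No match in footprints of both libraries was found for SRF, with 4 matches, AP-1 (TGACTCA), with 4, or MEF2, with 2. In all shared peaks 2.66% of SRF, 1.45% of AP-1 and 0.552% of MEF2 matches were so footprinted, so 0 of so few matches says nothing about the members. There were 0 matches of NFI, NRF1, CRE and YY1 near the members. Some footprinted SP/KLF matches overlap each other, as at the Vcl promoter, and others lie in promoters of neighbours such as Pdk1 and Adrm1. The shares over all shared peaks were not split into promoter and distal peaks, so the differences are not a trait of the members.

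**Figure D5:**
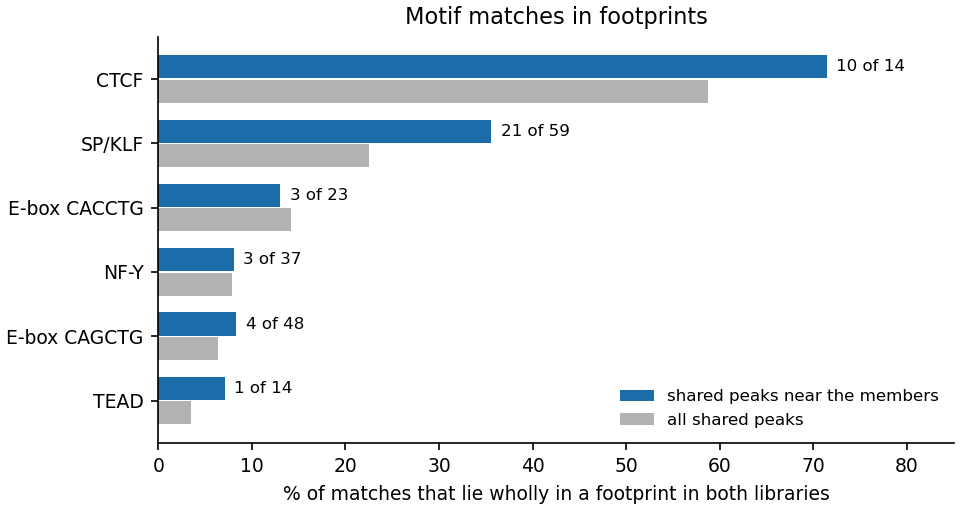
Share of motif matches that lay wholly in a footprint in both libraries (%), in the 104 shared peaks near the members (blue) and in all shared peaks (grey), for motifs with 10 or more matches near the members. CTCF has the highest share, 10 of 14, and TEAD the lowest, 1 of 14.

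The E-box CAGCTG was frequent in distal peaks. In the 200 bp round the centre it was found in 33 of 88 distal peaks near the members in replicate 1 (37.5%) and 44 of 125 in replicate 2 (35.2%), against 27.8% and 25.9% of all distal peaks. CACCTG showed the opposite order, with 10.2% and 13.6% near the members and 17.6% and 15.5% over all. MEF2 matches were found in 2.27% and 1.60% of the members' distal peaks and 1.33% and 1.42% of all. Few peaks stand behind these shares, and no difference was tested.

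The footprinted matches of motifs known from muscle are shown with 10 bases on either side, on the plus strand, with the match in capitals. They are the 6 that lie in the strongest shared peaks.
Vcl promoter, TEAD, chr14:20929255-20929260: ccctcccttgGGAATGggggcggggc
Itga5 distal, E-box CACCTG, chr15:103307332-103307337: gaaacagcgcCACCTGgtggtctttg
Itga5 distal, E-box CAGCTG, chr15:103315096-103315101: agaagaggtgCAGCTGgagctggacg
Tln2 distal, RUNX, chr9:67213444-67213450: tgtcccatggAACCACActgccccctg
Lama5 intron, E-box CAGCTG, chr2:180207971-180207976: ggtaggcccaCAGCTGccagagctgc
Itga6 internal promoter, E-box CACCTG as its complement, chr2:71838058-71838063: cgagcgccccCAGGTGgtccagtgag

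The TEAD match of Vcl, at -140 bp from the start, shares 1 unbroken footprinted run with an EBF match at -145 bp and SP/KLF matches at -133 and -128 bp, as the capitals of the promoter sequence show. The footprint thus cannot be given to any 1 of them. The CACCTG of the Itga5 distal peak lies inside a CTCF match, so these are 2 readings of the same bases. The CAGCTG match near Itga5 lies in a coding exon of Zfp385a, 36279 bp from the nearest Itga5 start, and the one in Lama5 lies in an intron, 17885 bp downstream of the start.

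A match of the SRF motif, the CArG box known from actin cytoskeleton genes, lies at -222 bp from the Vcl start. It was singled out after its values were seen. It lay wholly in a footprint in replicate 1 and was only touched by one in replicate 2, so it is not among the 44. Another lay at -35 bp from a Lama2 start, touched by a footprint in replicate 2 and by none in replicate 1.

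Of the 10 footprinted CTCF matches, 4 lay near Itga5, 8766 to 44042 bp from its nearest start in 3 cases and 3971 bp from it in the fourth. They are shown because they include the distal peak of mean rank 93.3, and were chosen after their values were seen. The sequences are on the plus strand, with the match in capitals.
chr15:103307330-103307341, match on the minus strand: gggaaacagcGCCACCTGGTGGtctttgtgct
chr15:103324165-103324176, match on the minus strand: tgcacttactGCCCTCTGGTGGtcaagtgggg
chr15:103342606-103342617, match on the minus strand: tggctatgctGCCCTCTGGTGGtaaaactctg
chr15:103347401-103347412, match on the plus strand: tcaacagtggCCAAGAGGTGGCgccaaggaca

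The first 3 thus read on the opposite strand from the last, which lies in an intron of Itga5. The remaining 6 were at 1 each of Itga6, Lama2, Lama4, Lama5, Tln2 and Vcl, and all 6 peaks were distal. In Itga6, Lama4 and Lama2 the peak with the CTCF match was also the gene's strongest shared distal peak. A match describes letters in the reference, not a bound factor.

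Other genes of the same pathways were counted in the same way. Promoter peaks in both libraries were found at 6 of 6 other laminin chains, with a median mean rank of 69.5, of which Lamb3 (85.7) and Lama1 (84.1) ranked highest. All 10 of 10 other basement membrane genes had one, with a median of 90.6, led by Hspg2 (99.3), which encodes perlecan, and Col6a2 (98.3). Col4a1 and Col4a2, which share a promoter, were given the same peak, of mean rank 85.6.

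Among other integrin subunits 13 of 14 did, with a median of 83.8, and Itgav (94.6) and Itga9 (93.3) ranked highest. Itgb4 had one in replicate 2 only. Among other adaptors and costamere proteins 23 of 26 did, with a median of 93.0, led by dystroglycan, Dag1 (99.9), and the actinin gene Actn4 (98.9). Fermt1 had a promoter peak in replicate 1 only, and Fermt3 and Csrp3 in replicate 2 only. All of these counts are set against 65.2% of protein-coding genes. Tln2 had no promoter peak, where its paralogue Tln1, the talin of most other cell types, had one of mean rank 95.5 ± 1.04 (SD, n = 2). Tln1 is singled out after its values were seen.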

How the data were processed

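Per the file listings, the deposited interval lists are on mouse build mm10, and each was made from 1 library. The peak lists carry the authors' density (signal), the FDR lists a q-value below 0.05 per interval, and the footprint lists the constant 0.01, a value no source explains. Reads were processed with an aligner and callers not given in the sources used here. Of the 2 peak lists of each library the longer was used. Transcript starts came from GENCODE vM21 and sequence from the GRCm38.p6 reference, which is C57BL/6J, so CAST alleles were not seen. Overlaps, percentile ranks, promoters (500 bp) and exact motif matches were computed in Python 3.11.15 with numpy 2.4.6 and pandas 2.3.3, and the counting steps were tested on simulated data. There was 1 group and no test. The members, gene lists and motifs were chosen with earlier results of these data known. Named were all members, each member's strongest shared distal peak, shared peaks of mean rank 90 or above with the gene whose promoter they touch, at most 4 genes a list, and 6 footprinted motif matches. Alternatives covered promoter width, starts, peak list, window, overlap and libraries.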

Additional observations from a re-analysis of the deposited data

How the results depend on the processing

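The count of 9 genes with a promoter peak in both libraries was the same with promoters of 200 or 1000 bp, the shorter lists, the strongest 50% of peaks, equal numbers of peaks and either library alone. It was 7 with the most upstream start only, because the promoter peaks of Lama2 and Itga6 lie at starts further downstream. The 65.2% of all protein-coding genes holds for any start, and no share over all genes is given here for the most upstream start. The median promoter rank was 90.4 with the most upstream start only and 74.6 in the shorter lists, against 85.1, and lay between 83.5 and 88.3 with 1 library left out. The 104 shared peaks became 67 among the strongest 50%, 66 within 20 kb and 173 within 100 kb, and 1 library alone had 129 to 167 peaks. Footprints, on average 349.5 per library, ran from 271 to 428 with 1 library left out. The 44 footprinted matches became 71 when any base of overlap counted, and 59 to 70 in 1 library alone. The FDR stretch and the density ratio moved less than their spread. No paired analysis was possible because there was 1 group, and depth in reads is unknown, so weak peaks missing in 1 library may have been below detection.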

Other observations

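Promoter rank and distal peaks did not follow 1 order over the 10 genes. Vcl, first of the 10 by promoter at a mean rank of 99.5, had 6 shared distal peaks in a window of 193 kb, none above 70.5. Tln2, with no promoter peak, had 15 shared distal peaks in a window of 418 kb, of which the strongest reached 86.9. Lama5, last of the 9 promoters at 73.5, had 8 in 148 kb, with the strongest at 85.8. Itgb1 and Lamc1, next after Vcl by promoter, had 4 in 139 kb and 9 in 204 kb, with the strongest at 90.1 and 86.8. Among the other genes the strongest shared distal peak reached 96.2 at Itga5, 87.3 at Itga6, 79.0 at Lama4, 65.9 at Lamb1 and 49.3 at Lama2. Their promoters had mean ranks of 85.1, 80.0, 84.5, 90.4 and 78.0 in that order. The windows differ in length, so the counts alone do not compare the genes. Ranks and counts were set side by side after they were seen, and no relation was tested.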
